A study of Mus musculus with 42 samples.

Results

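Spleen gene expression 5 days after a single intraperitoneal injection of CpG oligodeoxynucleotides was set against untreated spleen, over all genes of a mouse oligonucleotide array. The members are the 4 arrays titled as CpG ODN at 5 days and the 6 arrays titled as untreated, out of 42 arrays in 10 groups. CpG ODN are short single-stranded DNAs with unmethylated CG pairs, and each mouse of the treated group received 400 µg of an equimolar mixture of ODN 1555 and 1466. All animals were female BALB/c mice, a wild-type inbred strain. The labels used here state neither their age nor whether an array stands for 1 mouse or a pool. The untreated mice received no injection, and a control ODN was given only in a group killed at 3 h. At 5 days the CG sequence, the DNA itself and the injection therefore cannot be told apart. Spleens taken 72 h and 7 days after the same injection, with 4 arrays each, are used below as the times on either side.

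CpG DNA is bound inside endosomes by Toll-like receptor 9, which in the mouse is made by dendritic cells, B cells and macrophages. The receptor signals through MyD88 and drives type I interferon, interleukin 12 and, through natural killer and T cells, interferon gamma. The adult mouse spleen is also a reserve blood-forming organ: its red pulp can take up erythroid, granulocytic and megakaryocytic precursors, the process called extramedullary haematopoiesis, and it enlarges after repeated or strong CpG exposure.

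Each array compared Cy5-labelled spleen cDNA with Cy3-labelled cDNA of a universal mouse reference RNA, and the deposited value of a feature is the log2 of spleen over reference. A level below is that log2 ratio, averaged over the features of a gene, and a difference is the level at 5 days minus the level in the group named. The values covered 15277 genes, of which 15006 were measured on at least 3 arrays of both groups and tested. A gene was called where the Benjamini-Hochberg adjusted p of a limma fit to all 42 arrays was below 0.05. Array values correlated at 0.865 to 0.925 among the 5-day arrays and at 0.865 to 0.957 among the untreated arrays, and at 0.762 to 0.864 between the groups. Features without a value numbered 336 to 1512 on the 5-day arrays and 186 to 1740 on the untreated arrays. The 5-day arrays carry database numbers from 3 runs and the untreated arrays from 2 others, so that the order of recording and the treatment cannot be told apart by a fixed term. In bulk spleen RNA, fewer cells of a type and less RNA per cell cannot be told apart either. B-cell antigen receptor gene Cd79b was above the reference on every array. It was at 2.19 to 2.31 on the 5-day arrays and 3.50 to 3.86 on the untreated arrays. Pancreas acinar genes had mean levels of 0.34 to 5.50 and of 0.62 to 5.71 on these arrays. Cd79b therefore does not show that a sample was spleen alone.

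At 5 days, 4633 of the 15006 genes were called, or 30.9%. Of all genes tested, 2624 (17.5%) were higher and 2009 (13.4%) were lower, and the median difference was 0.01. The groups' arrays did not overlap for 13.6% of the genes measured on all 10 arrays in the higher direction and for 9.54% in the lower. A difference of at least 1 was reached by 764 of the called genes. Lists of cell division, red-cell precursors and interferon-inducible GTPases held many higher members, and the B and T cell lists held many lower ones, as the plot of list counts shows.

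**Figure D1:**
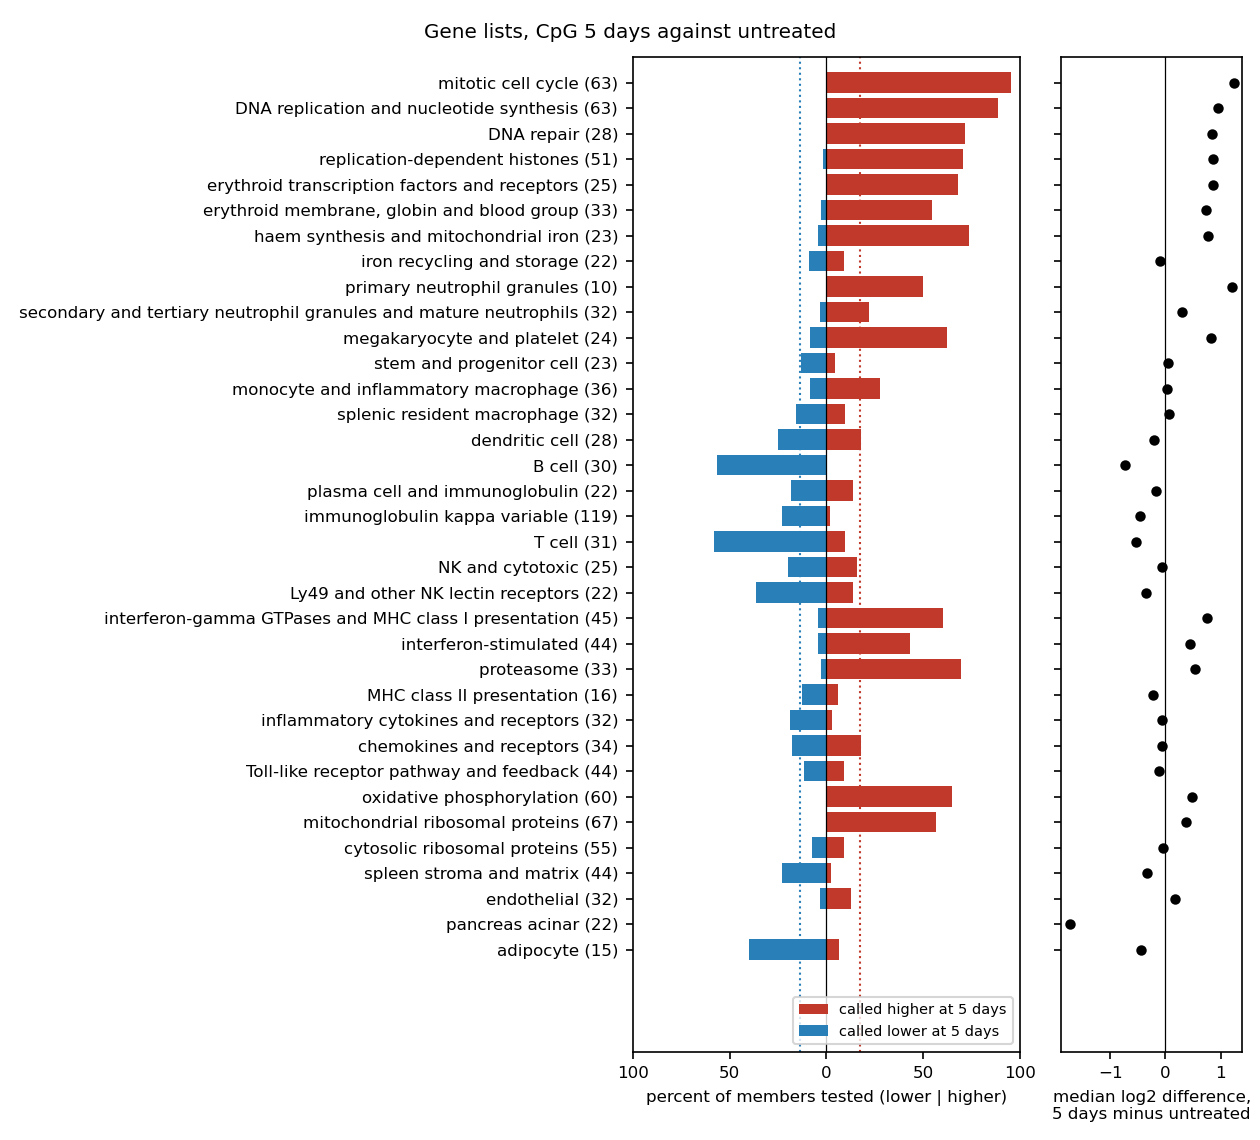
Gene lists at 5 days against untreated. Left, percent of each list's tested members (number in brackets) called higher (red, to the right) or lower (blue, to the left), with dotted lines at the percent over all genes tested (17.5 and 13.4); right, the median log2 difference of the list. The mitotic cell cycle list reaches the furthest to the right and the T and B cell lists the furthest to the left, while the cytosolic ribosomal list sits near 0.

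Genes of cell division were higher as a block. Of 63 mitotic cell cycle genes tested, 60 were called higher and 0 lower, with a median difference of 1.24. Top2a, the topoisomerase that untangles sister chromosomes, had levels of 0.86, 1.06, 1.60 and 1.14 on the 5-day arrays, against a lowest of -1.13, a median of -0.49 and a highest of -0.04 on the untreated arrays. All 4 treated spleens lay above all 6 untreated ones, and the difference was 1.76 (SE 0.28, adjusted p 1.7e-05). Ncaph, a subunit of the condensin complex, was at 0.44, 0.55, 0.49 and 0.45 at 5 days, against -1.90 to -0.89 in untreated spleen with a median of -1.22. Its 4 treated arrays lay close together and above all untreated ones, and the difference was again 1.76 (SE 0.20, adjusted p 6.63e-08). Cenpi, a centromere protein, and Sgo2a, the shugoshin that guards sister cohesion, differed by 1.77 and 1.75. Mki67, which marks cycling cells, averaged 2.21 ± 0.19 at 5 days (SD, n = 4) and 1.21 ± 0.77 in untreated spleen (SD, n = 6). Its difference of 1.00 was not called (adjusted p 0.0587), 1 untreated array lay as high as 2.52, and leaving out untreated replicate 2 brought the gene under the threshold.

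Of 63 DNA replication and nucleotide synthesis genes, 56 were called higher and 0 lower, with a median of 0.96. Orc1, a subunit of the origin recognition complex, was at 1.17, 1.78, 2.48 and 1.52 on the 5-day arrays, against -0.58, -0.12 and 0.28 as the lowest, median and highest untreated values. The groups did not overlap and differed by 1.87 (SE 0.33, adjusted p 6.36e-05). Prim2, a primase subunit, differed by 1.85, the histone chaperone Asf1b by 1.69 and cyclin E2 (Ccne2) by 1.68. Of 28 DNA repair genes, 20 were higher and 0 lower, led by the recombination factors Rad51ap1 at 1.64 and Rad54l at 1.63.

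Of 51 replication-dependent histone genes, whose transcripts are made in S phase, 36 were higher and 1 was lower, with a median of 0.87. H3c2 was at 2.72, 2.21, 1.87 and 3.21 at 5 days, against 0.28 to 1.32 in untreated spleen with a median of 0.64. Both groups stood apart, by 1.85 (SE 0.29, adjusted p 1.44e-05). The list's mean level was 1.82 at 5 days and 2.14 at 7 days. At 9 days H3c2 averaged 3.06 and the replication gene Orc1 0.36, against 2.50 and 1.74 at 5 days. Histone genes are near copies of each other, and a feature may bind several of them. This family was put together after values had been seen.

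RefSeq promoter windows (build GRCm38.p6, 250 bases before to 50 after a gene's start, first listed window per gene) were searched on both strands for CCAAT and for TTTGAA, the letters of the CCAAT box and of the cell cycle homology region. CCAAT stood in 39 of the 53 mitotic genes with a window (73.6%) and in 37.9% of all 27025 windows. TTTGAA stood in 34 of the 53 (64.2%) and in 18.1% of all windows. The window of Top2a is shown because it is the member with the largest difference among those named that holds both motifs. It lies at chr11:99024140-99024439 on the minus strand, and capitals mark CCAAT or ATTGG at 6 places and TTTGAA or TTCAAA at 2.
Top2a: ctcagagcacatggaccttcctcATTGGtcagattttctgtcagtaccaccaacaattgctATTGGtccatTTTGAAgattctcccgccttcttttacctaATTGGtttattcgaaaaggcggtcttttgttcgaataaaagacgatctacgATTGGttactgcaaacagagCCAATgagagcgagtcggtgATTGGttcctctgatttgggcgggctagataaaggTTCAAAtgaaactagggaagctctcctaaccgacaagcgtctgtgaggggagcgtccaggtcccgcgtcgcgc

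Red-cell precursor genes made up the next block. Of 25 erythroid transcription factors and receptors, 17 were called higher and 0 lower, with a median difference of 0.87, and every one of the 25 differences was above 0. Tal1, a factor that blood-forming cells need, was at 4.74, 4.52, 4.92 and 4.53 on the 5-day arrays, against a lowest of 2.02, a median of 2.71 and a highest of 3.54 on the untreated arrays. No arrays overlapped, and the difference was 1.95 (SE 0.33, adjusted p 3.07e-05), or 3.86-fold. Zfpm1, the partner protein of Gata1, was at 2.41, 1.49, 1.55 and 2.18, against -0.23 to 0.69 in untreated spleen with a median of 0.08. It differed by 1.76 (SE 0.22, adjusted p 3.75e-07). Gata1 itself, the master regulator of the lineage, was at 2.58, 2.73, 3.38 and 3.40 at 5 days, against 1.89 to 2.38 in untreated spleen with a median of 2.09. Its difference was 0.91 (SE 0.20, adjusted p 0.000574), with the groups apart.

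Both transferrin receptor genes were higher too, among them Tfrc, which brings iron into precursors. Tfrc was at 3.81, 4.56, 3.65 and 4.00 at 5 days, against 1.84, 2.30 and 2.62 as the lowest, median and highest in untreated spleen, a difference of 1.71 (SE 0.34, adjusted p 0.000214). Tfr2, the second transferrin receptor, was nearly the same in all 4 treated spleens (2.01 to 2.05), against -0.15 to 0.81 in untreated spleen. Its difference was 1.66 (SE 0.15, adjusted p 3.7e-10), and its 2 features differed by 0.93 and 2.38. Klf1, the factor that switches on adult globin genes, had 3 measured values at 5 days, 6.03, 6.52 and 6.70, against 4.33 to 6.31 in untreated spleen. It was higher by 1.24 (SE 0.42, adjusted p 0.0238), a call that was lost without untreated replicate 5. The erythropoietin receptor Epor was at 2.05, 1.91, 1.80 and -0.79, against 0.69 to 1.48 in untreated spleen. The first 3 replicates lay above all untreated arrays and replicate 4 far below, and Epor was not called (difference 0.16, adjusted p 0.72). Without 5-day replicate 4 its difference was 0.84 and called, and its 2 features differed by 0.01 and 1.65.

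Of 33 erythroid membrane, globin and blood group genes, 18 were higher and 1 was lower, with a median of 0.74. The higher ones held blood group and adhesion proteins. Kel, the Kell antigen, was at 3.63, 4.62, 5.28 and 4.90 on the 5-day arrays, against 1.92, 2.63 and 3.47 as the lowest, median and highest untreated values. The groups did not overlap, and Kel differed by 2.00 (SE 0.36, adjusted p 6.34e-05), or 4-fold. Xk, its partner in the red-cell membrane, differed by 1.83 and Icam4, the Landsteiner-Wiener antigen, by 1.76. Ank1, the ankyrin that anchors the red-cell skeleton, differed by 1.50 and Car1, a carbonic anhydrase, by 1.34.

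Hbb-b1, an adult beta globin, had 3 values at 5 days, 5.86, 5.58 and 7.30, against 6.18 to 7.82 in untreated spleen with a median of 6.48. The ranges overlapped and the difference of -0.58 was not called (adjusted p 0.318), nor were those of Hbb-b2 (-0.53) and Hba-a1 (-0.53). Globin genes are near copies and their features may share signal. Slc4a1, the band 3 anion exchanger, differed by 0.05 and Rhag, the Rh-associated glycoprotein, by 0.32, and neither was called. The 1 lower member was the glucose transporter Slc2a1, at -1.06 (SE 0.26, adjusted p 0.00187).

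Of 23 haem synthesis and mitochondrial iron genes, 17 were higher, 1 was lower and the median was 0.77. The lower one was Alas2, the erythroid enzyme of the first step of haem synthesis. It was at 3.30, 2.42, 3.43 and 3.21 on the 5-day arrays, against a lowest of 3.42, a median of 4.78 and a highest of 5.29 on the untreated arrays. Only the lowest untreated value reached the treated range, and Alas2 differed by -1.48 (SE 0.37, adjusted p 0.00204). Abcb10, a mitochondrial transporter of precursor cells, had 3 values at 5 days, 3.48, 2.85 and 3.61, against 0.72 to 2.23 in untreated spleen, and differed by 1.78 (SE 0.34, adjusted p 0.000153). Abcb6, a porphyrin transporter, differed by 1.18 and the ferrireductase Steap3 by 1.22.

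Of 22 iron recycling and storage genes, which serve the red pulp macrophages that clear old red cells, 2 were higher and 2 lower. Over all genes tested the shares were 17.5% higher and 13.4% lower. The higher members were Slc48a1, at 0.79 (adjusted p 0.00658) without overlap, and Aco1, at 0.52 (adjusted p 0.0409) with overlap. Hmox1, which opens the haem ring, was at 1.65, 1.59, 1.36 and 1.50, against 1.96 to 2.31 in untreated spleen with a median of 2.17. With no overlap between the groups, it differed by -0.62 (SE 0.18, adjusted p 0.00843). The iron exporter Slc40a1 differed by -0.58 (adjusted p 0.0357), a call lost on leaving out 5-day replicates 1, 3 or 4 or untreated replicates 3, 4 or 5, one at a time.

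The AGATAA and TGATAA letters that GATA factors bind were sought in the windows of the 44 members of both erythroid lists that have one. At least 1 of them stood in 14 (31.8%), against 19.0% of all windows. Kel is shown because its window holds both, in capitals. It lies at chr6:41704276-41704575 on the minus strand.
Kel: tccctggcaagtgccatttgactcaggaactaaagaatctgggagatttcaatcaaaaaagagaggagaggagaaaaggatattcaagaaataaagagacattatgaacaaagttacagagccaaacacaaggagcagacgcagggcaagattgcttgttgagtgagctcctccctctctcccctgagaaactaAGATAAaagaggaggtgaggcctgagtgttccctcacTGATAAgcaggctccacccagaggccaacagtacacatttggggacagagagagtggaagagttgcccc

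Granulocyte genes were read as early and late granule lists. Of 10 primary granule genes, whose products are made by promyelocytes, 5 were higher and 0 lower, with a median of 1.21. Prtn3, the granule protease proteinase 3, was at 3.76, 3.79, 3.26 and 4.04 on the 5-day arrays, against 0.40, 0.94 and 1.55 as the lowest, median and highest untreated values. The groups lay far apart, and the difference was 2.72 (SE 0.30, adjusted p 2.56e-08), or 6.59-fold. Ctsg, cathepsin G, was at 2.93, 3.45, 4.17 and 4.56, against 0.49 to 1.32 in untreated spleen with a median of 0.83, and differed by 2.90 (SE 0.34, adjusted p 6.63e-08). Elane, neutrophil elastase, differed by 2.12 and Mpo, myeloperoxidase, by 1.99. Ms4a3, a membrane protein of granulocyte and monocyte progenitors, differed by 2.75.

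Of 32 genes of secondary and tertiary granules and mature neutrophils, 7 were higher and 1 was lower, beside 17.5% and 13.4% of all genes. The list's median was 0.30. The higher count was 3 without 5-day replicate 3 and 4 without replicate 4. Ngp, a neutrophilic granule protein, was at 2.24, 1.73, 2.72 and 2.58, against -0.14 to 1.45 in untreated spleen with a median of 0.49, a difference of 1.72 (SE 0.46, adjusted p 0.00432). Ltf, lactoferrin, differed by 1.26 (adjusted p 0.0163), a call lost without 5-day replicate 3. Camp, the cathelicidin precursor, was at 2.46, 2.79, 3.06 and 3.82, against 1.50 to 3.08, and was not called (difference 0.73, adjusted p 0.0936). Ltf averaged 5.57 and Camp 6.09 at 9 days, the highest group mean of each in the series.

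Megakaryocyte and platelet genes were also higher than in untreated spleen: 15 of 24 were higher, 2 lower, and the median was 0.82. Without 5-day replicate 4, 9 were higher. Vwf, the von Willebrand factor, was at 2.94, 2.90, 3.29 and 3.50, against 0.84 to 2.05 in untreated spleen, and differed by 1.74 (SE 0.31, adjusted p 6.6e-05). Gp6, the platelet collagen receptor, differed by 1.41, while the platelet chemokine Pf4 differed by 0.71 and stood at the threshold (adjusted p 0.0492). That call was lost without any 1 of 5-day replicates 1 and 4 or untreated replicates 1, 2, 3 and 6. Vwf is also on the endothelial list, of which 4 of 32 were higher and 1 lower. In the control ODN group at 3 h Vwf averaged 2.51 and Gp6 2.64, against 1.42 and 2.19 in untreated spleen. Gp1bb averaged 2.56 and Mmrn1 2.34 in that group, against 1.37 and 1.20 in untreated spleen. The part that CpG has in the platelet gene differences was not tested. The basophil protease Mcpt8 was at 2.82, 3.01, 2.60 and 3.30, against 0.62 to 1.14 on the 4 untreated arrays with a value, a difference of 2.03 (SE 0.28, adjusted p 2.62e-06). It was the only higher member of 16 eosinophil, basophil and mast cell genes, of which 1 was lower. That list's median was -0.02. Of 23 stem and progenitor genes, 1 was higher and 3 were lower, beside 17.5% and 13.4% of all genes. Their median was 0.04. Myb, needed by dividing progenitors, was higher by 0.87, the stem cell factor Mecom differed by -0.71, and Kit (0.43) and Cd34 (-0.26) were not called.

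**Figure D2:**
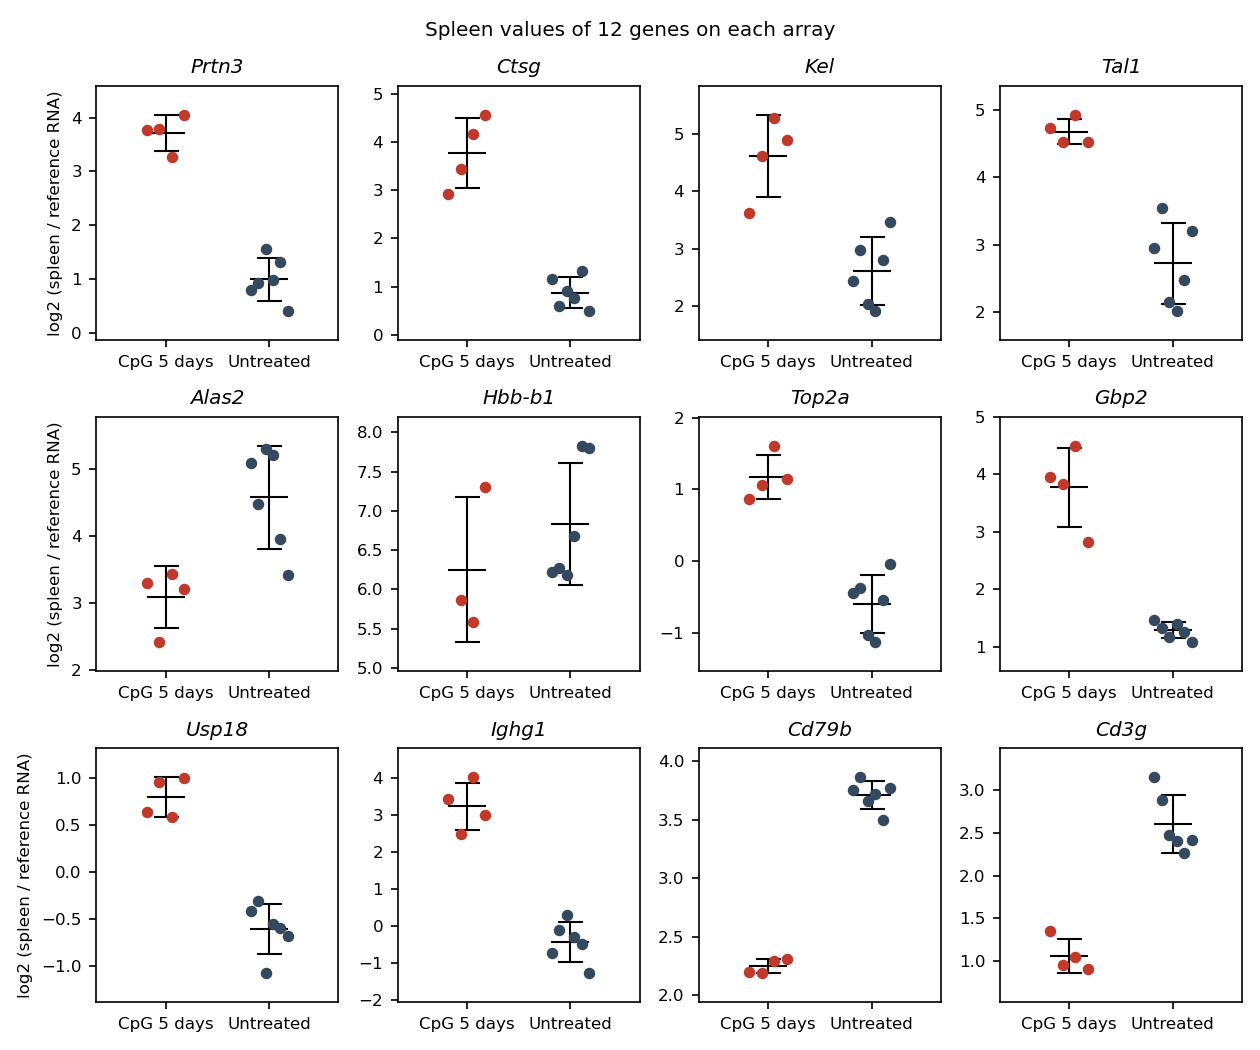
Levels of 12 genes on each array, as log2 of spleen over reference RNA. Red points, 4 arrays at 5 days; dark points, 6 untreated arrays; bars, mean and SD. Prtn3, Ctsg, Kel, Tal1, Top2a, Gbp2, Usp18 and Ighg1 lie above the untreated arrays without overlap, Cd79b and Cd3g below, Hbb-b1 overlaps and has 3 treated values, and Alas2 overlaps at 1 untreated array.

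Interferon-gamma-inducible GTPases were high at 5 days. Of 45 genes on the list of these GTPases and MHC class I presentation, 27 were higher and 2 lower, with a median of 0.75. All 9 guanylate-binding proteins and all 6 immunity-related GTPases measured were called higher, with medians of 1.42 and 1.74. These enzymes coat and disrupt the vacuoles of intracellular microbes. Gbp2b was at 5.42, 5.25, 5.67 and 4.03 on the 5-day arrays, against 1.97, 2.07 and 2.24 as the lowest, median and highest untreated values. Replicate 4 was the lowest treated array yet stood well above all untreated ones, and the difference was 3.01 (SE 0.27, adjusted p 4.63e-10). Gbp2 showed the same order, at 3.96, 3.83, 4.49 and 2.83, against 1.08 to 1.47, and differed by 2.49 (SE 0.26, adjusted p 1.4e-08). Members of the family share sequence, and their features may bind each other's transcripts.

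Igtp, an immunity-related GTPase, was at 3.91, 4.76, 4.46 and 4.38, against 1.75 to 2.25 in untreated spleen with a median of 2.17, and differed by 2.32 (SE 0.20, adjusted p 3.7e-10). Iigp1 and Irgm2, of the same family, differed by 2.41 and 2.23. Apol10a, an apolipoprotein L placed on the list, had the largest called difference of all named genes: it was at 4.59, 5.25, 5.43 and 5.09, against 0.03, 1.41 and 1.67, a difference of 3.92 (SE 0.40, adjusted p 9.49e-09), or 15.1-fold. Its time course was unlike that of Gbp2b. Apol10a averaged 1.22, 1.29 and 0.61 at 3 h, 9 h and 24 h, then 4.80 at 72 h, 5.48 at 7 days and 5.38 at 9 days. Gbp2b averaged 5.64 at 3 h and 2.99 at 7 days. Ubd, the ubiquitin-like protein FAT10, which interferon gamma and tumour necrosis factor induce, differed by 2.59. The chemokines Cxcl9 and Cxcl10, which draw T cells, differed by 1.44 and 0.92. Cxcl10 was at 3.47, 3.39, 2.37 and 2.03, against 1.61 to 2.07 in untreated spleen. Its replicate 4 lay within the untreated range, and the call was lost without 5-day replicate 1 or 2. Interferon gamma itself (Ifng) was at 2.48, 2.19, 2.10 and 2.20, against 1.69 to 2.20, and was not called (difference 0.32, adjusted p 0.215).

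In the windows of the 36 members that have one, a pair of GAAA with any 2 letters between them, as in the interferon-stimulated response element, stood in 18 (50%) and in 3.5% of all windows. TTCNNNGAA, of the gamma-activated site, stood in 10 (27.8%) and in 8.5% of all. Both were chosen after the values had been seen. The windows of Apol10a (chr15:77476797-77477096, plus strand) and Igtp (chr11:58199306-58199605, plus strand) are shown because they hold both motifs, marked by capitals, the longer on either strand.
Apol10a: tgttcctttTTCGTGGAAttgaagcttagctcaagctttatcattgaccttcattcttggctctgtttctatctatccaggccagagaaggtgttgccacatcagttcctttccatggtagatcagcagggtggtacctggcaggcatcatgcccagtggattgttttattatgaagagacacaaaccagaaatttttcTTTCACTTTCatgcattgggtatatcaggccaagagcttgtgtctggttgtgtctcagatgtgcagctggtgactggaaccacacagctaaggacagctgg
Igtp: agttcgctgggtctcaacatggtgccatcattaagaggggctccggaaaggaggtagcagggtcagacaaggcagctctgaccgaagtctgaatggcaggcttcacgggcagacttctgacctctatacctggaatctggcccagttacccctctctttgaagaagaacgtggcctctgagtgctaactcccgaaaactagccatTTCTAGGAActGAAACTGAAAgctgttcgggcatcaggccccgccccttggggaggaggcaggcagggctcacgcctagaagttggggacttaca

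Of 44 other interferon-stimulated genes, those best known from type I interferon, 19 were higher, 2 lower, and the median was 0.45. Oasl2, an oligoadenylate synthetase-like protein, was at 1.66, 1.68, 1.51 and 1.62, against -0.28 to 0.33 in untreated spleen with a median of 0.06, and differed by 1.57 (SE 0.17, adjusted p 3.07e-08). Usp18, which removes ISG15 from proteins and damps interferon signalling, was at 0.64, 0.96, 0.59 and 1.00, against -1.08 to -0.31, a difference of 1.41 (SE 0.24, adjusted p 4.39e-05). Irf7, the amplifier of type I interferon genes, overlapped with untreated spleen and was not called (difference 0.33, adjusted p 0.288). Of 33 proteasome genes, 23 were higher and 1 lower, with a median of 0.53.

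Of 44 Toll-like receptor pathway and feedback genes, 4 were higher and 5 lower, beside 17.5% and 13.4% of all genes. The list's median was -0.12. Tlr9 itself was at 1.16, 0.62, 0.49 and 0.70, against -0.03 to 0.54 in untreated spleen. It differed by 0.50 and stood at the threshold (adjusted p 0.0498), and the call was lost without any 1 of 5-day replicates 1, 2 and 4 or untreated replicates 1, 3, 5 and 6. Nfkbia, the inhibitor that NF-kappaB induces, was at 0.07, -0.54, -0.36 and -0.80, against 0.16 to 1.17, and was lower (difference -1.02, SE 0.19, adjusted p 0.000108). Of 32 inflammatory cytokine and receptor genes, 1 was higher and 6 lower. Il6 (0.05) and Il12b (0.34), early products of the receptor, were not called, and the interleukin 18 receptor Il18r1 differed by -1.41 (SE 0.27, adjusted p 0.000122).

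Lymphocyte genes were lower. Of 30 B cell genes, 0 were higher and 17 lower, with a median of -0.74. Cd79b, a chain of the B cell receptor, was at 2.20, 2.19, 2.29 and 2.31 on the 5-day arrays, against a lowest of 3.50, a median of 3.74 and a highest of 3.86 on the untreated arrays. Both groups were tight and apart, by -1.46 (SE 0.15, adjusted p 6.26e-09). Spib, a factor of B and plasmacytoid dendritic cells, was at 2.66, 3.21, 3.03 and 0.70, against 3.62 to 4.57, and differed by -1.73, with replicate 4 far below the rest. Without that array its difference was -1.16. Ms4a1, which encodes CD20, differed by -0.55 and was not called (adjusted p 0.0674), although its arrays did not overlap.

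Of 31 T cell genes, 3 were higher and 18 lower, with a median of -0.53. Cd3g, a chain of the T cell receptor complex, was at 1.35, 0.95, 1.05 and 0.91, against 2.27, 2.45 and 3.15 as the lowest, median and highest untreated values. The groups did not overlap, and Cd3g differed by -1.54 (SE 0.18, adjusted p 5.01e-08). Cd3e differed by -1.24, Cd28 by -1.44, and Lef1, a factor of naive T cells, by -1.61. Cd8a differed by -0.53 and was not called (adjusted p 0.0642), and its 2 features went opposite ways, by -1.16 and 0.09.

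Ighg1, the constant region of IgG1, was at 3.43, 2.48, 4.03 and 3.01, against -1.28, -0.40 and 0.30 as the lowest, median and highest untreated values, a difference of 3.67 (SE 0.68, adjusted p 9.75e-05). Ighg2c was at -0.11, -0.12, 0.31 and 0.09, against -3.07 to -1.43, a difference of 2.42 (SE 0.46, adjusted p 0.000131). BALB/c mice carry Ighg2a in place of Ighg2c, so this feature reads a related sequence. In the control ODN group at 3 h, Ighg1 averaged 1.81 and Ighg2c -0.89, against -0.44 and -2.37 in untreated spleen. Ighg1 was at 1.75, 3.64, 0.78 and -1.19 at 72 h. The part that CpG has in these differences was not tested. Igha, of IgA, differed by 1.06. The constant regions of IgM (Ighm, -0.14) and IgD (Ighd, -1.41, adjusted p 0.0611) were not called. Of 22 plasma cell and immunoglobulin genes these 3 were the only ones higher, and 4 were lower, among them the joining chain Jchain at -0.64 and Irf4 at -0.76. The Irf4 call was lost without 5-day replicate 2. Of 119 immunoglobulin kappa variable genes, a family formed after values had been seen and with much shared sequence, 2 were higher and 27 lower. The lower count was 7 and 14 without 5-day replicates 1 and 2, 13 and 12 without untreated replicates 1 and 3, and 17 without untreated replicate 4 or 5. It was 17 with only the arrays compared, 70 with quantile normalization, 61 with scale normalization and 43 with array weights.

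Of 25 natural killer and cytotoxic genes, 4 were higher and 5 lower, beside 17.5% and 13.4% of all genes. Without 5-day replicate 3 the lower count was 3. Xcl1, a chemokine of natural killer and CD8 T cells, was at 5.58, 4.04, 4.65 and 4.42, against 2.35 to 4.07, and differed by 1.38 (SE 0.35, adjusted p 0.00271). Gzma, granzyme A, was at 5.72, 5.93, 4.79 and 5.61, against 5.76 to 7.25, and differed by -0.99 (adjusted p 0.00809), a call lost without 5-day replicate 3. Gzmb, granzyme B, was close to untreated spleen (difference 0.34, adjusted p 0.459).

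Myeloid cells other than neutrophils gave mixed counts. Of 36 monocyte and inflammatory macrophage genes, 10 were higher and 3 lower, beside 17.5% and 13.4% of all genes. The list's median was 0.03. Fcgr4, a receptor for IgG2, was at 3.33, 2.96, 2.52 and 3.30, against 0.68 to 1.85 in untreated spleen, and differed by 1.85 (SE 0.28, adjusted p 9.04e-06). Ms4a6d differed by 2.33 and the transglutaminase subunit F13a1 by 1.48, while the elastase Mmp12 differed by -1.32. In the control ODN group at 3 h F13a1 averaged 3.36, against 3.44 at 5 days and 1.95 in untreated spleen. Ms4a6d averaged 2.67 and Mmp12 0.36 in that group, against 1.65 and 0.29 in untreated spleen. Of 32 splenic resident macrophage genes, 3 were higher and 5 lower, again beside 17.5% and 13.4% of all genes. The lower count was 1 without 5-day replicate 3, and 3 without 5-day replicate 4 or untreated replicate 3 or 4. Cd5l, a secreted protein of red pulp and marginal zone macrophages, was at 4.15, 4.98, 4.67 and 2.40, against 1.14 to 3.37. It differed by 1.45 (adjusted p 0.0111), a call lost without 5-day replicate 2 or 3, and replicate 4 alone lay within the untreated range. Siglec1, of metallophilic macrophages, was at 3.95 to 4.13, against 3.74 to 4.38, and was not called.

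Of 28 dendritic cell genes, 5 were higher and 7 lower, beside 17.5% and 13.4% of all genes. Without 5-day replicate 4 the lower count was 4. The higher ones included Xcr1 and Clec9a, markers of the cross-presenting subset. Cadm1 and Id2, also tied to that subset, were called lower. Clec9a, a receptor for dead cells, was at 1.92, 1.82, 2.04 and 1.83, against 0.24 to 0.79, and differed by 1.40 (SE 0.19, adjusted p 1.53e-06). The lower ones also held the homing receptor Ccr7 at -1.37 and the plasmacytoid factor Tcf4 at -1.13. Cxcl13, the B cell follicle chemokine, was at 5.48, 5.62, 5.74 and 2.67, against 5.08 to 6.21, and was not called (difference -0.87, adjusted p 0.08). Without 5-day replicate 4 the difference was -0.14, and without 5-day replicate 2 or 3 it was called, at -1.12 and -1.16.

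Mitochondrial gene lists were higher: 39 of 60 oxidative phosphorylation genes and 38 of 67 mitochondrial ribosomal proteins, with 0 lower in either and medians of 0.48 and 0.37. Cyc1, cytochrome c1, was at -0.07, 0.19, 0.46 and 0.21, against -1.01 to -0.48, and differed by 1.01 (SE 0.19, adjusted p 0.000156). Of 55 cytosolic ribosomal proteins, 5 were higher and 4 lower, with a median of -0.05.

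Of 44 stroma and matrix genes, 1 was higher and 10 lower, with a median of -0.33. Decorin (Dcn) was at -2.30, -2.90, -2.18 and -2.82, against -2.23 to -0.39, and differed by -1.32 (SE 0.27, adjusted p 0.000336). Of 15 adipocyte genes, 6 were lower and 1 higher, and the list's mean level was 0.45 to 0.94 on the 5-day arrays and 0.77 to 1.18 on the untreated arrays. Pancreas acinar genes, from the organ that lies against the spleen, had mean levels of 0.34, 1.03, 5.50 and 0.44 on the 5-day arrays, against 0.62 to 5.71 on the untreated arrays. None of the 22 acinar genes tested was called by limma, although their median difference was -1.74. The part that fat or pancreas in the samples has in any other result was not tested.

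The 15 genes with the lowest called differences ran from Vpreb2, a surrogate light chain of B cell precursors, at -2.59 to the olfactory receptor Olfr100 at -1.73, and included the hair keratins Krt82 (-2.22) and Krt28 (-1.97) and the liver enzyme Gnmt (-2.41). Krt28 was at -0.02, -0.31, -0.03 and -0.39, against 1.57, 1.76 and 1.99 in untreated spleen, so its arrays lay far apart. Each of the 15 rests on 1 feature. Their mean level was 0.04, -0.43, -0.30 and -0.61 on the 5-day arrays and 1.47 to 2.07 on the untreated arrays, with means of 0.76 at 72 h, 0.55 at 7 days, 0.60 at 9 days and 1.24 at 14 days. As a description with no test, since the genes were chosen by this contrast, the 5-day arrays were thus the lowest of the series for them, the 9-day arrays included, of which replicates 1 and 2 share a run with 5-day replicate 1. Whether the run had a part was not tested.

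**Figure D3:**
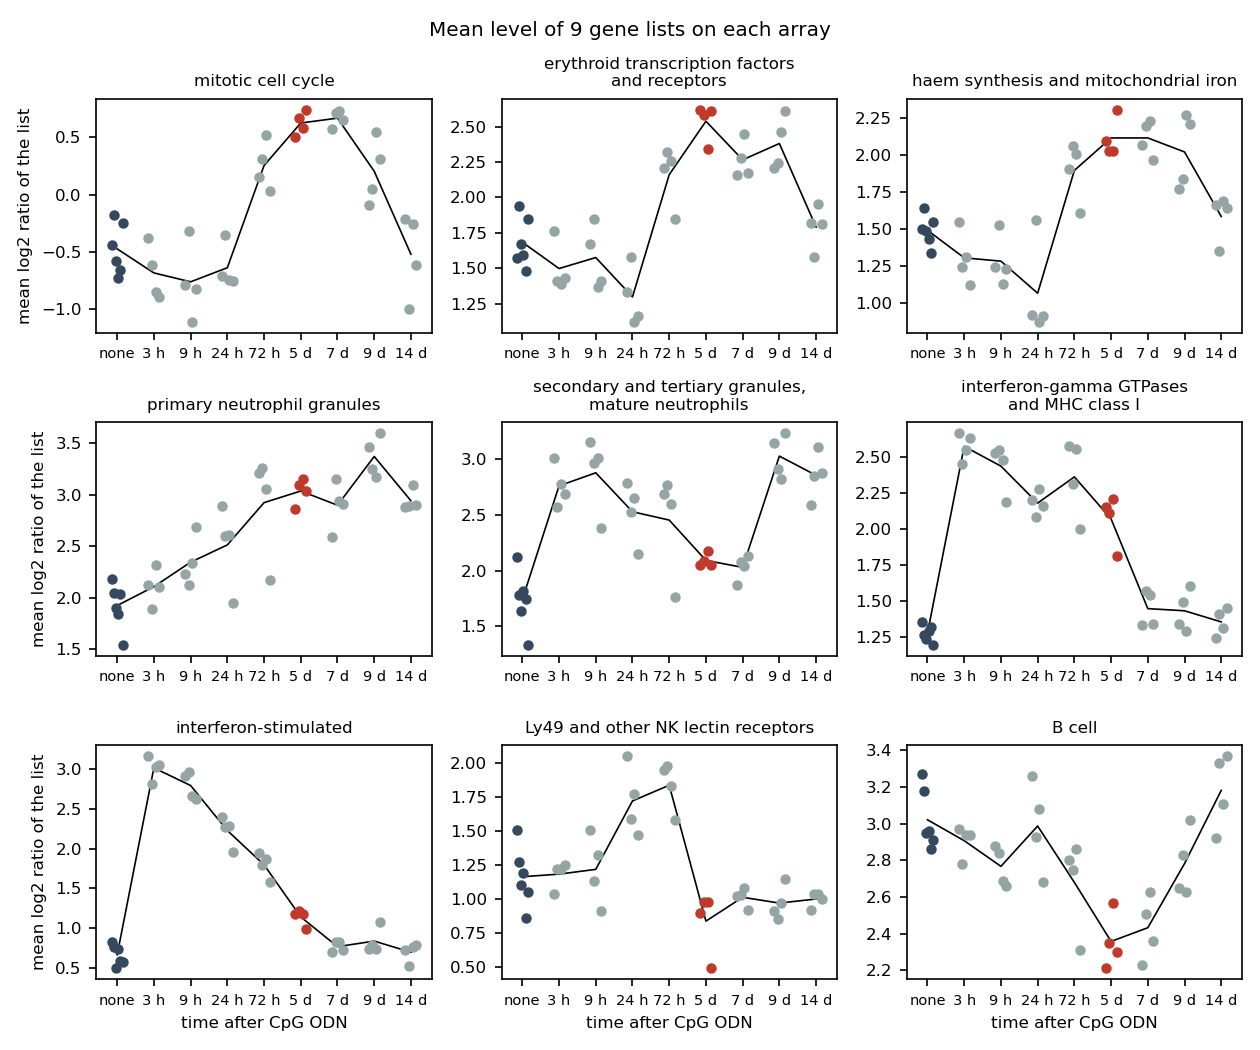
Mean level of 9 gene lists on each array, from untreated spleen (none) through 3 h to 14 days after CpG ODN. Red, 5 days; dark, untreated; grey, other times; line, group means. At 5 days the cell cycle and erythroid lists are near their highest means, the interferon-stimulated list has come down from its early maximum, the GTPase list is still high, and the B cell list is at its lowest mean.

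Against 72 h, the 5-day spleens differed in 510 of 14926 genes (3.42%), with 185 higher (1.24%) and 325 lower (2.18%). The arrays of the times did not overlap for 10.1% of the genes measured on all 8, 5.03% higher and 5.07% lower. Replicate 4 at 72 h stood apart from its group, with a mean of 2.53 over the 15 genes highest at 5 days, against 3.71 to 3.87 in the other 3. Without it 522 genes were called, but a fit to the 8 arrays alone called 28 (2706 genes had an unadjusted p below 0.05 in the fit to all arrays). The count fell to 253, 266 and 230 without 5-day replicates 1, 2 and 4, and to 279 and 260 without 72 h replicates 1 and 3.

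Of 44 interferon-stimulated genes, 19 were lower and 0 higher, with a median of -0.65, and 12 were lower without 5-day replicate 4 or 72 h replicate 3. The lower count was 5 with only the arrays of the groups compared, 4 without arrays missing over 1000 features and 29 with array weights. For the GTPase and MHC class I list the counts were 3 lower and 0 higher of 45, with a median of -0.22. Gzmb was at 2.83, 3.26 and 1.74 on 3 arrays at 5 days, against 4.79, 4.88, 5.13 and 4.68 at 72 h, and differed by -2.26 (adjusted p 0.00023). Gzma was at 5.72, 5.93, 4.79 and 5.61, against 7.88, 7.71, 6.76 and 7.24, and differed by -1.88 (adjusted p 0.000501). Neither gene overlapped between the times.

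Of 22 natural killer lectin receptors, the Ly49 family and its relatives, 11 were lower than at 72 h and 0 higher, with a median of -0.96. The lower count was 6 without 5-day replicate 4 or 72 h replicate 3, and 7 without 72 h replicate 1 or 2. It was 3 with only the arrays compared, 5 without arrays missing over 1000 features and 17 with array weights. Klra4 was at -1.90, -2.11, -1.89 and -1.94, against -1.05, 0.42, -0.23 and -0.38, and differed by -1.65 (adjusted p 3.08e-05). Klrc1, the receptor NKG2A, differed by -2.34 (adjusted p 0.0301), with replicate 4 at -2.07 beside 3.39, 3.79 and 3.02. Without 5-day replicate 4 the difference was -0.97 and not called, and the call was also lost without 72 h replicates 1 or 3 (at -2.21 and -2.38) or 2. The stefin Stfa3, a cathepsin inhibitor of neutrophils, differed by -2.13 and complement factor B (Cfb) by -1.52. Cfb was at 4.68, 4.85, 4.38 and 3.97, against 6.53, 6.22, 5.89 and 5.30 at 72 h, and its values at 5 days lay in the untreated range of 4.27 to 4.89 in all but replicate 4.

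Of 51 histone genes, 13 were higher and 0 lower, with a median of 0.65. H2bc22 was at 2.08, 1.84, 1.26 and 2.35, against 0.78, 0.99, -0.09 and 0.67, and differed by 1.30 (adjusted p 0.00331). The histone count was 6 without 5-day replicate 1 or 2, 4 without replicate 4, and 8 and 5 without 72 h replicates 1 and 3. It was 1 with only the arrays compared, 1 without arrays missing over 1000 features and 24 with array weights. By contrast 1 of 63 mitotic genes was higher than at 72 h, with a median of 0.36. Tfr2 differed by 1.06 (adjusted p 0.000152) and Zfpm1 by 1.09 (adjusted p 0.00899). Pklr, the pyruvate kinase of liver and red cells, was at 3.25, 2.74, 2.44 and 2.84, against 1.84, 1.62, 0.64 and 1.12, and differed by 1.51 (adjusted p 0.00023). Its 2 features differed from untreated spleen by 0.44 and 2.94. Elane was at 2.69, 3.00, 3.07 and 3.30, against 1.80, 2.43, 1.99 and 1.43, and differed by 1.10 (adjusted p 0.00841).

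**Figure D4:**
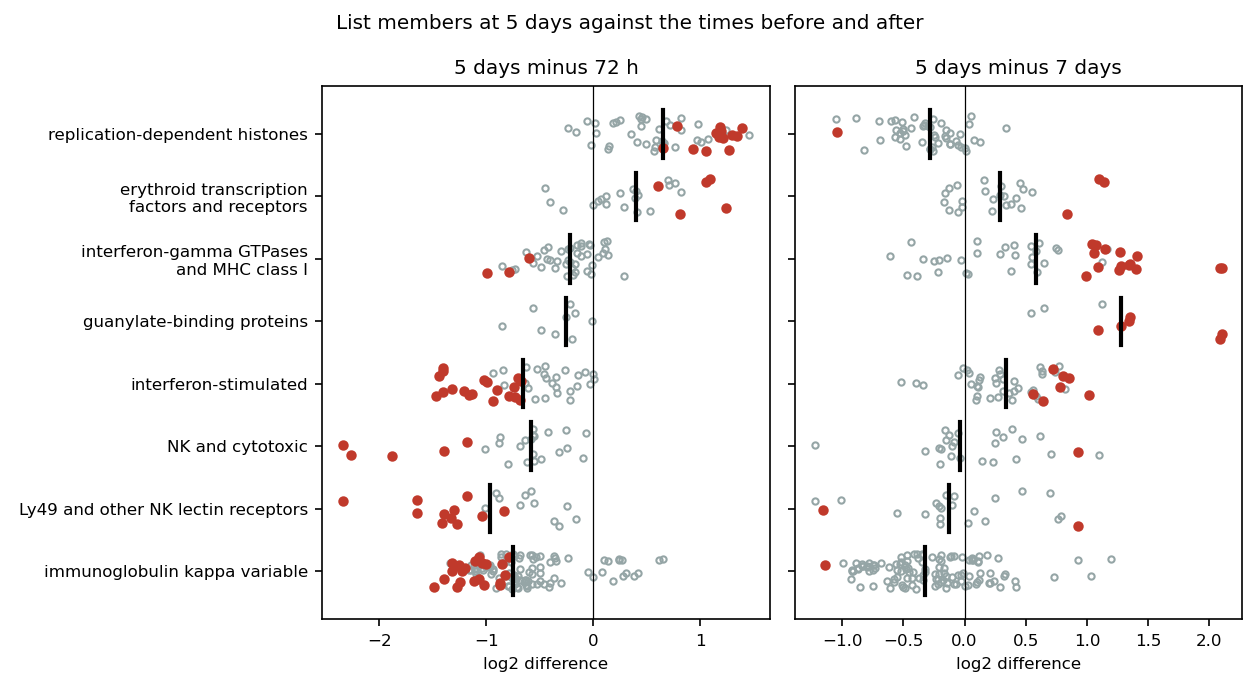
Differences of list members at 5 days minus 72 h (left) and minus 7 days (right). Each circle is 1 gene, filled red where called, and the bar is the list median. Histone members lie to the right of 0 against 72 h, interferon-stimulated, NK and kappa variable members to the left, and the guanylate-binding proteins lie near 0 against 72 h and to the right against 7 days. Both panels share the 5-day arrays.

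Against 7 days, 482 of 14952 genes were called (3.22%), 293 higher (1.96%) and 189 lower (1.26%). The count fell to 193, 229 and 267 without 5-day replicates 1, 2 and 4, and to 240, 316 and 86 without 7-day replicates 2, 3 and 4. Of the 45 GTPase and MHC class I genes, 15 were higher than at 7 days and 0 lower, with a median of 0.58. Of the 9 guanylate-binding proteins, 6 were higher than at 7 days. Gbp2 was at 3.96, 3.83, 4.49 and 2.83 at 5 days, against 1.44, 1.61, 2.02 and 1.67 at 7 days, and differed by 2.09 (adjusted p 5.38e-05). Gbp2b differed by 2.10 and Iigp1 by 1.27. Socs1, the inhibitor that interferon gamma induces, was at 1.47, 1.06, 0.62 and 0.57, against -0.26, -0.24, -0.14 and 0.10, and differed by 1.07 (adjusted p 0.00297).

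Of 44 interferon-stimulated genes, 7 were higher than at 7 days and 0 lower. That count was 2 without 5-day replicate 1, 4 without 5-day replicate 2 or 3 or 7-day replicate 2, and 1 without 7-day replicate 4. With array weights it was 14. Adamdec1, a protease of macrophages and dendritic cells, was at 3.65, 3.43, 3.39 and 3.35, against 1.60, 2.22, 1.49 and 1.36, and differed by 1.79 (adjusted p 0.00762). Mitotic (0 higher and 0 lower of 63) and B cell genes (0 higher and 1 lower of 30) gave few calls between 5 and 7 days. Among the lowest, Clec2d, a ligand of natural killer receptors, was at 0.86, 0.72, 1.27 and 0.18, against 1.98, 2.32, 2.15 and 2.18, and differed by -1.40 (adjusted p 0.00359). Rnase2a (-1.59), Spon2 (-1.55), Spi1 (-1.49) and Acer1 (-1.36) were lower too, and each lost its call without 7-day replicate 4 among other arrays.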

How the data were processed

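Spleen RNA of 42 arrays was read from the series' deposited value table, whose log2 ratios of Cy5 (spleen) over Cy3 (reference) were made by the authors. The base and direction were inferred from the values and the labelled dyes. The labels and headers used here name no scanner setting, background correction or normalization. Of 30601 features, 23485 carried a single gene symbol in the platform annotation and were averaged per symbol into 15277 genes, while 6937 had no symbol and 179 had several. Genes with at least 3 arrays per group were fitted with limma 3.58.1 in R 4.3.3 on all 42 arrays, with 1 coefficient per group, moderated variances and Benjamini-Hochberg adjustment over all genes. Groups came from the sample titles. No step says which arrays came from separate mice, so p-values measure the spread between arrays. That spread is pooled within all 10 groups and not taken only from the groups compared. The number of arrays limits the precision.

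Named genes were the 15 highest and 15 lowest called differences from untreated spleen, 8 and 5 each way against 72 h and 7 days, up to 4 called members of each of 36 lists, and a panel of reference genes. The members and lists were chosen with earlier results of these data known, and 8 gene families were added after values were seen. On simulated data with 15006 genes, the fit against untreated spleen recovered 29.9%, 94% and 100% of changes of 0.5, 1 and 2, with 6 false calls among 155. The simulation changed 67, 67 and 66 genes by these sizes, with independent noise for each value and no run effect. It therefore cannot say how many of the 4633 calls are false. Alternatives covered normalization, filters, weights, the arrays fitted, a replicate block, and runs (arrays whose database numbers lie within 12 of the next) as a random block.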

Additional observations from a re-analysis of the deposited data

Results flagged for a closer look

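Among 371 sets of 4 to 6 values, each of 1 named gene in 1 group, 15 held an array far from the rest by Dixon's test, which chance flags in about 1 in 20 sets. On the 5-day arrays, replicate 4 stood apart for Klrc1 at -2.07, Epor at -0.79, Cxcl13 at 2.67 and Psma5 at -0.18. Replicate 1 stood apart for Gpr176 at -0.51, Mecom at -0.94 and Tcf4 at -1.0. Replicate 2 stood apart for Tfr2 at 2.01, beside values of 2.04 and 2.05 on the other 5-day arrays. On the untreated arrays, replicate 5 stood apart for Cd209a at 0.67, Cd209b at 0.98, Cd28 at 1.23 and Rpl13a at -0.37. Untreated replicate 1 stood apart for Il1r1 at -0.16 and Mrpl20 at 0.38, and replicate 6 for Rad54l at -0.24.

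Of 43 named genes called against 72 h, 21 were also called by limma in every fit that left out 1 array of the groups, as a test of the difference between the times. For Gzmb and Prss30, which have missing values, 5 of the 8 such fits could be made. The higher ones were Pklr (1.51), Ugt8a (1.31), Prss30 (1.31), H2bc22 (1.30), Elane (1.10), Zfpm1 (1.09), Tfr2 (1.06) and Clec9a (0.99). The lower ones were Gzmb (-2.26), Stfa3 (-2.13), Gzma (-1.88), Klra4 (-1.65), Gnmt (-1.65), Cfb (-1.52), Dapl1 (-1.46), Vpreb2 (-1.44), Ceacam15 (-1.31), Krt28 (-1.18), Ttpa (-1.07), Hmox1 (-0.91) and Lpl (-0.78).

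Against 7 days this held for 13 of 39 named genes, with 5 of the 8 fits made for Ceacam15. The higher ones were Gbp2b (2.10), Gbp2 (2.09), Adamdec1 (1.79), Prss30 (1.53), Pklr (1.32), Iigp1 (1.27), Ugt8a (1.22), Tfr2 (1.14), Socs1 (1.07) and Oasl2 (0.85). The lower ones were Clec2d (-1.40), Ceacam15 (-1.27) and Krt28 (-0.93).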

How the results depend on the processing

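The number of genes called against untreated spleen was 3735 to 4459 with single arrays left out, and 2758 of the 4633 calls (59.5%) could be fitted and held without each array in turn. It was 3928 with a replicate block, 2577 without arrays missing over 1000 features (an alternative chosen after seeing the data), 2824 at an adjusted p below 0.01 and 764 at a difference of at least 1. Of 34 list counts against untreated spleen, 13 moved by over 1.5 times without the arrays missing over 1000 features. Against 72 h the number of genes called was 783 with scale normalization, 28 with only the arrays compared, 1671 with array weights, 79 without arrays missing over 1000 features, 104 at an adjusted p below 0.01 and 126 at a difference of at least 1. With single arrays left out it was 230 to 532, with a replicate block 537, and 104 of the 510 calls (20.4%) could be fitted and held throughout. Against 7 days it was 1461 with array weights, 275 without the arrays missing over 1000 features, 75 at an adjusted p below 0.01 and 101 at a difference of at least 1. With single arrays left out it was 86 to 411, with a replicate block 564, and 61 of the 482 calls (12.7%) could be fitted and held throughout. Same-numbered arrays of 5 days and untreated spleen correlated at 0.006, 0.268, 0.061 and 0.276 in their deviations. The 5-day replicates 2 and 4 correlated best with the untreated array of their own number, and replicates 1 and 3 did not. So few values cannot decide whether the numbers pair the arrays. Of 43 named genes called against 72 h, 36 lost the call with only the arrays compared. The cause of these shifts was not tested.

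Signs turned for 6 named genes that were not called against untreated spleen. Without the arrays missing over 1000 features Klrc1 was at 0.13, Csta2 at 0.0 and Cfb at 0.13, and with array weights Csta2 was at 0.09 and Cfb at 0.02. With single arrays left out Klrc1 ranged from -1.79 to 0.16, Cfb from -0.25 to 0.04 and Il6 from -0.07 to 0.25, with the highest value of Klrc1 and Cfb without 5-day replicate 4. Epor ranged from -0.11 to 0.84 with single arrays left out, at -0.06 without 5-day replicate 2 and -0.03 without replicate 3. Il6 was at -0.07 without 5-day replicate 2, and at -0.05 and -0.01 without untreated replicates 3 and 4. Siglec1 was at -0.07 with quantile normalization, -0.28 with scale normalization and -0.04 with a replicate block.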
